A study of Mus musculus with 4 samples.

Results

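Working myocytes of the left and the right ventricle were compared in single-cell libraries from wild-type CD1 mouse embryos at embryonic day 16.5. Heart regions had been microdissected, and the left and right bundle branch and Purkinje fiber (BB/PF) regions each gave 1 10x Genomics 3' library, beside 1 library each of the sinoatrial node (SAN) region and the atrioventricular node and His bundle (AVN/His) region. No group carried a mutation, transgene or treatment. The study's methods state equal numbers of both sexes for the experiments described there, and call the single-cell data set preexisting. How many embryos of each sex went into each library is not given in the sources used here. The members were selected on measured values: at least 500 genes, a muscle score of at least 1.5 (the mean over Tnnt2, Myh6, Ttn, Actn2 and Ryr2 of the natural log of 1 plus UMIs per 10000), more UMIs of the ventricular light chain Myl2 than of the atrial light chain Myl7, no UMI of the Purkinje gene Cacna2d2, and hemoglobin under 1% of UMIs. A UMI, or unique molecular identifier, marks 1 captured RNA molecule. The rule took 4153 of 5452 barcodes on the left and 2749 of 5010 on the right, 6902 of the 22805 barcodes of the 4 libraries. The same rule took 2540 cells of the AVN/His library and 3 of the SAN library. With 1 library a ventricle there was no replicate and no test, and the side, the embryos and the library cannot be told apart. The values below are therefore CPM, which are summed UMIs scaled to a total of 1000000, with exact 95% Poisson intervals, ratios of CPM with exact conditional binomial intervals, and shares of cells with exact binomial intervals, all of which cover counting error only.

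The left ventricle grows from the first heart field, and the right ventricle largely from the second heart field. The bHLH factor Hand1 is known from the left ventricle and its partner Hand2 from the right, while Tbx5 patterns the left side and the septum. Late in gestation both walls consist of dividing working myocytes with an inner trabecular layer, rich in natriuretic peptide, and an outer compact layer.

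Members had a median of 8619 UMIs and 2366 genes on the left and 9483 UMIs and 2459 genes on the right, with 37265050 and 26623679 UMIs in all, and every member held more than 2000 UMIs. The 9 markers of ventricular working myocytes summed to 36644 CPM on the left and 35356 CPM on the right, and none of them differed by 1.5-fold. Myl2, on which the rule rests, is among them, and the other 8 summed to 21251 and 20484 CPM. Near the limit of the muscle score, 39 left and 23 right cells lay between 1.5 and 1.6, and 22 and 21 cells that met the rest of the rule lay just under it. There were 17 barcodes common to the members of both libraries. A library's mitochondrial transcripts took 15.5% of the UMIs of left members and 18.9% of those of right members.

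The libraries also differed in the transcripts that tell female from male cells. Xist, the noncoding RNA that coats the inactive X chromosome, was at 849 CPM on the left and 138 CPM on the right, and was found in 86.4% and 15.6% of members. Eif2s3y, a translation factor gene of the Y chromosome, was at 8.13 CPM on the left and 53.3 CPM on the right. A skew to the same side was present in the other cells of the libraries: 302 of 344 left fibroblast-like cells held a Xist UMI against 218 of 676 on the right, and 227 of 255 left endothelial-like cells against 126 of 471. The right shares of these cells, 32.2% and 26.8%, were above the 15.6% of right members. In the AVN/His library Xist was at 0.668 CPM, and none of its 2540 members held 2 Xist UMIs. The members of each library were therefore also split, after these values had been seen, into Xist-marked cells (at least 2 Xist UMIs and none of the Y-linked Ddx3y, Uty, Eif2s3y and Kdm5d) and Y-marked cells (no Xist UMI and at least 1 of those). The left library held 3390 Xist-marked, 326 Y-marked and 437 unmarked members, and the right library 357, 1633 and 759. The left sum was thus mostly that of Xist-marked cells and the right sum mostly that of Y-marked cells, so the main ratios below are also given within both kinds of cell. The groups differed in depth, with median UMIs of 8732.5 and 8569 in left Xist-marked and Y-marked cells and 8227 and 10066 in right ones. Their median muscle scores were 2.33, 2.38, 2.34 and 2.58 in the same order. Of members with at least 2 Xist UMIs, 0.906% on the left and 6.54% on the right also held a Y-linked UMI, and these stayed unmarked.

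Few genes separated the ventricles. Of 10665 genes with at least 100 UMIs over both libraries, 187 were at least 1.5-fold higher on the left (1.75%) and 320 on the right (3%), and 75.7% lay within 1.2-fold. The median log2 ratio of left over right was 0.04. Past 2-fold were 42 genes on the left and 120 on the right.

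**Figure D1:**
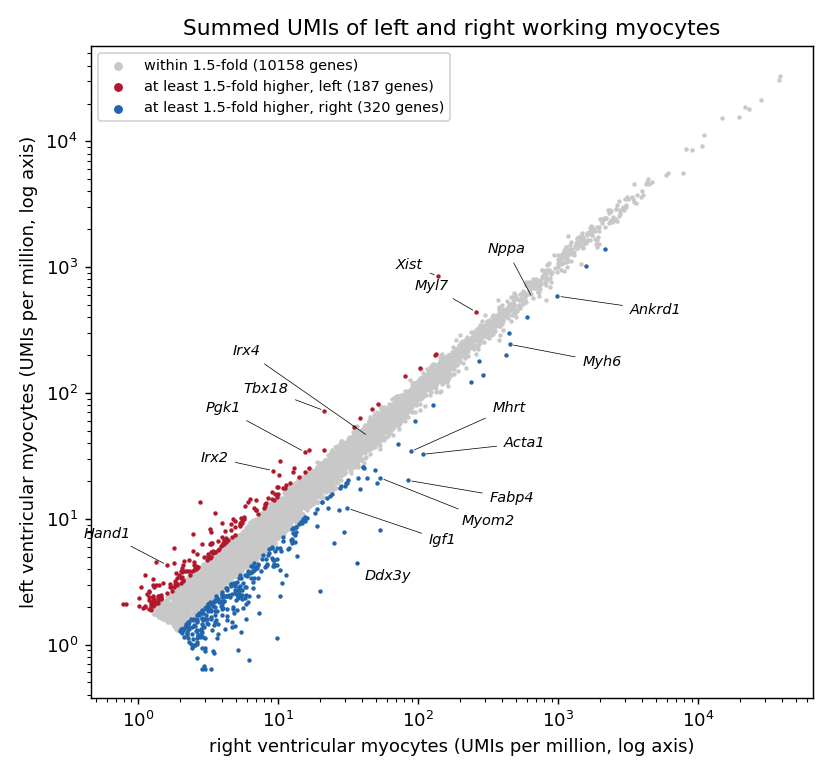
Level (CPM) of 10665 genes in right (x axis) and left (y axis) working myocytes, both log axes. The 187 genes at least 1.5-fold higher on the left are red, the 320 higher on the right are blue and the other 10158 are gray; Tbx18 and Irx2 stand off the diagonal while Irx4 lies on it.

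Among genes that at least 10% of left members held, Tbx18 had the highest left over right ratio after Xist. It is a T-box repressor known from the sinus horn and the epicardium, and was at 72.3 CPM (69.6 to 75) on the left and 21.5 CPM (19.8 to 23.4) on the right, a ratio of 3.36 (3.07 to 3.68), and was found in 38.8% and 13.1% of cells. With each cell thinned to 2000 UMIs the shares were 12.3% and 4.51%. In endothelial-like cells, which serve as a measure of free RNA, unthinned shares were 1.57% and 1.27% at median depths of 11024 and 11584 UMIs. The higher level of the left library was therefore present in many cells and not in a few with many UMIs, since no cell held more than 8.

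Split by mark, the left-right difference of Tbx18 was present in Y-marked cells and not in Xist-marked cells. Y-marked cells held 49.1 CPM (41.4 to 57.9) on the left and 12.3 CPM (10.7 to 14.1) on the right, a ratio of 4.0 (3.21 to 4.98). Xist-marked cells held 75.5 CPM (72.5 to 78.7) on the left and 85.3 CPM (75.4 to 96.2) on the right, a ratio of 0.885 (0.779 to 1.01). Inside the right library, Xist-marked cells thus exceeded Y-marked cells 6.95-fold (5.77 to 8.37). Members of the AVN/His library, nearly free of Xist, were at 15.7 CPM, next to the right Y-marked cells.

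The Iroquois homeobox genes of chromosome 13 did not move as one. On GRCm38 (GENCODE M21), Irx1 lies at chr13:71957921-71963723, Irx2 at chr13:72628820-72634198 and Irx4 at chr13:73260479-73269608. Irx2 was at 24.1 CPM on the left and 9.28 CPM on the right, a ratio of 2.60 (2.25 to 3.0). Irx1 was at 12.6 and 5.78 CPM, a ratio of 2.18 (1.81 to 2.63). Irx4, a ventricular factor of both chambers, was at 45.1 and 44.5 CPM, a ratio of 1.01 (0.941 to 1.09). The Irx2 ratio was 2.51 (1.77 to 3.52) in Y-marked cells and 0.908 (0.727 to 1.15) in Xist-marked cells, the same arrangement as for Tbx18. For Irx1 the intervals were wide, 1.56 (0.926 to 2.52) and 1.02 (0.735 to 1.44). Irx4 was level in both, at 0.995 (0.817 to 1.2) and 1.07 (0.892 to 1.28). Irx3 and Irx5, which form the second cluster on chromosome 8, were at 7.30 and 5.45 CPM and at 5.82 and 4.43 CPM, under 1.5-fold apart.

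The 250 bases before the start of Irx2 (RefSeq, GRCm38.p6, chr13:72628570-72628819, plus strand) are shown as the regulatory stretch next to the more unequal Iroquois gene, and those of Acta1 (chr8:123894776-123895025, minus strand) as that of the contractile gene furthest to the right; capitals mark the TEAD letters CATTCC in either direction.
Irx2: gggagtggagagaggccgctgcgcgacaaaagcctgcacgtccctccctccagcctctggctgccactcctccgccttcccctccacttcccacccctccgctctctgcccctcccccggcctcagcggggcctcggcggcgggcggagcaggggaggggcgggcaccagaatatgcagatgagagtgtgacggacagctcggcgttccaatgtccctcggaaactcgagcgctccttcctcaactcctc
Acta1: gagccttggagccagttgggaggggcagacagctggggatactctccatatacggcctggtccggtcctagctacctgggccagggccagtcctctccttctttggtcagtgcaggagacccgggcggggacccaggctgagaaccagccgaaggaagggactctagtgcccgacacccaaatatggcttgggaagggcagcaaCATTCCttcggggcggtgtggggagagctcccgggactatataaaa
The GENCODE M21 start of Acta1, at chr8:123894751, lies further from the stretch than the RefSeq start used here. The Acta1 stretch held CATTCC once, 46 bases before the RefSeq start, and the Irx2 stretch did not hold it. These letters occur on either strand in 12.6% of 32851 promoter stretches of this length. Neither stretch held the T-box letters AGGTGTGA (1.12% of stretches) or the GATA letters AGATAA (9.99% of stretches) on either strand.

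Of 40 measured chamber transcription factors, 4 were called on the left (Tbx18, Irx2, Hand1 and Irx1) and 4 on the right, among them Nr2f2, Id1 and Id3, beside 1.75% and 3% of all genes tested, and the median log2 ratio was -0.07, beside 0.04 over all genes. Hand1 was sparse, at 4.29 CPM (3.65 to 5.01) on the left and 1.62 CPM (1.17 to 2.18) on the right, a ratio of 2.66 (1.89 to 3.81), with a UMI in 3.64% and 1.46% of cells. Its level followed the mark rather than the library, at 4.61 and 5.13 CPM in left and right Xist-marked cells and 0.697 and 1.07 CPM in left and right Y-marked cells, the left Y-marked value resting on 2 UMIs. Hand2 was at 49.4 CPM on the left and 56.5 CPM on the right, and Tbx5 at 10.9 and 9.35 CPM, both within 1.5-fold. Their left over right ratios were 1.05 (0.889 to 1.26) and 0.95 (0.676 to 1.37) in Xist-marked and 0.868 (0.722 to 1.04) and 1.23 (0.807 to 1.82) in Y-marked cells, with every interval across 1. The right-called Id1 and Nr2f2 were below 5 CPM, and Id1 was no longer higher on the right without cells that carried markers of another cell type.

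Most genes of the trabecular and compact layer lists were within 1.5-fold between left and right. Of 11 trabecular genes 1 was called on the left, Gja5, and 2 on the right, Nppb and Bmp10. Of all genes tested, 1.75% were called on the left and 3% on the right. Gja5, the connexin of Purkinje fibers and trabeculae, was at 9.88 and 4.81 CPM. Within Xist-marked cells it was lower on the left, with a ratio of 0.669 (0.493 to 0.926), while in Y-marked cells the ratio was 1.54 (0.829 to 2.71). The Purkinje marker list summed to 46.4 CPM on the left and 34.6 CPM on the right, a ratio of 1.34 (1.24 to 1.46). Of its 6 measured genes 2 were called on the left, Gja5 and Irx1, and 1 on the right, Slit2. Left and right sums were 48.2 and 56.5 CPM in Xist-marked cells and 31.4 and 31.8 CPM in Y-marked cells. Nppb was at 297 CPM on the left and 447 CPM on the right, a right over left ratio of 1.51 (1.47 to 1.54), and Nppa was at 566 and 658 CPM. Cells with at least 50 Nppa UMIs per 10000 made up 2.34% (1.90 to 2.84) of left and 3.53% (2.87 to 4.29) of right members. Both peptides were more unequal in Y-marked cells, with right over left ratios of 2.82 (2.62 to 3.03) for Nppa and 2.37 (2.18 to 2.58) for Nppb, against 1.07 (1.02 to 1.12) and 1.26 (1.18 to 1.33) in Xist-marked cells. Of 9 compact layer genes the D-type cyclin Ccnd2 was called on the left, at 159 and 104 CPM. Hey2, the Notch effector of the compact wall, was at 81.5 and 104 CPM, and the transactivator Cited1 at 286 and 200 CPM, both short of 1.5-fold. In Xist-marked and Y-marked cells the left over right ratios were 1.14 (1.04 to 1.26) and 1.30 (1.16 to 1.46) for Ccnd2, 1.03 (0.907 to 1.18) and 0.807 (0.703 to 0.923) for Hey2, and 1.23 (1.14 to 1.33) and 1.08 (0.990 to 1.18) for Cited1.

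Of 30 contractile genes 6 had been used to select the cells, namely Tnnt2, Myh6, Ttn, Actn2, Myl2 and Myl7. Of the other 24 none was called on the left and 3 on the right, Acta1, Myom2 and the light chain Myl4. Beside this, 1.75% and 3% of all genes tested were called, and the median log2 ratio of the 24 was -0.05. Acta1, skeletal alpha-actin, was the furthest to the right of these, at 108 CPM (104 to 112) against 32.5 CPM (30.7 to 34.4), a ratio of 3.32 (3.11 to 3.56). Its UMIs were unevenly spread, with up to 135 in 1 right cell and 30 in 1 left cell, and 24.3% and 11.5% of cells held any. Myom2, an M-band protein, was at 54.0 CPM on the right and 21.1 CPM on the left, a ratio of 2.56 (2.35 to 2.80). In Y-marked cells the right over left ratios were 2.25 (1.93 to 2.65) for Acta1 and 2.81 (2.17 to 3.71) for Myom2, and in Xist-marked cells 0.956 (0.759 to 1.19) and 1.07 (0.822 to 1.36). Of the genes used for selection Myh6 and Myl7 passed 1.5-fold and are given as a description only: Myh6 was at 243 CPM on the left and 455 CPM on the right, and Myl7 at 441 and 260 CPM. Ankrd1, the stretch-responsive titin partner, was at 589 CPM (581 to 597) on the left and 991 CPM on the right, a ratio of 1.68 (1.65 to 1.71). It too was higher on the right in Y-marked cells, 3.02-fold (2.84 to 3.22), and not in Xist-marked cells, at 0.867 (0.824 to 0.911).

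Several genes were highest in the right Y-marked cells among the 4 ventricular groups. Igf1, a growth factor, was at 12.2 CPM in left Xist-marked, 11.8 CPM in left Y-marked and 8.98 CPM in right Xist-marked cells, and at 34.1 CPM in right Y-marked cells. Nmrk2, a nicotinamide riboside kinase of muscle, was at 17.1, 15.3, 11.2 and 44.6 CPM in the same order. Cxcl12, a chemokine, was at 20.3, 12.9, 26.3 and 57.3 CPM. AVN/His members were at 35.0 CPM for Igf1, 24.8 CPM for Nmrk2 and 73.4 CPM for Cxcl12. Over the 58 right-called genes outside the sex transcripts with a UMI in at least 10% of right cells, the median log2 ratio of left over right was -0.03 in Xist-marked cells and -0.79 in Y-marked cells, on the log2(CPM + 1) scale. For 46 of these 58 genes the right Xist-marked cells were nearer to the left Xist-marked than to the right Y-marked cells. This was not so over the right-called genes as a whole, genes held by fewer cells included: for all 316 outside the sex transcripts the medians were -0.49 and -0.82, and 127 were nearer. Over the 40 left-called genes of the same kind the medians were 0.42 and 0.59, and 20 of the 40 were nearer. For all 185 left-called genes the medians were 0.31 and 0.50, and 94 were nearer. The left Xist-marked and right Y-marked cells supplied most UMIs of the sums that chose these genes, so the counts are descriptions. Right Xist-marked cells also carried more fibroblast RNA, with Col1a2 at 44.6 CPM against 12 CPM in right Y-marked and 15.2 CPM in left Xist-marked cells. Their contractile list, genes of the rule included, summed to 64586 CPM. It summed to 75857 CPM in left Xist-marked, 76295 in left Y-marked and 78539 in right Y-marked cells. Ventricular markers summed to 31159 CPM against 36686, 36181 and 35885, and macrophage markers to 32.1 CPM against 5.23, 1.74 and 20.2, in the same order. The part of these differences in the ratios was not tested.

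**Figure D2:**
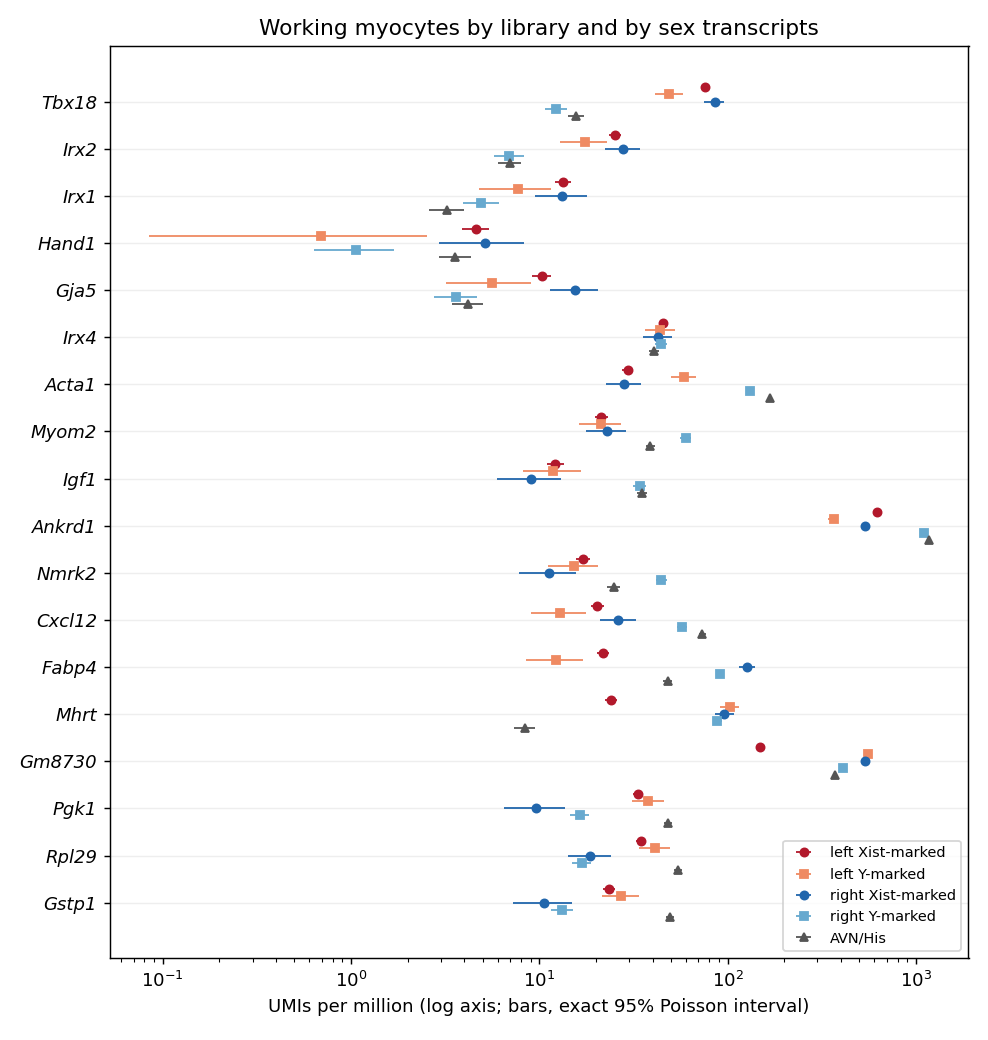
Level of 18 genes in Xist-marked and Y-marked members of the left and right libraries and in AVN/His members, in CPM on a log axis, with exact 95% Poisson intervals. For Tbx18, Irx2, Acta1, Myom2 and Igf1 the right Y-marked cells lie apart from the other ventricular groups, while Pgk1, Rpl29 and Gstp1 divide by library and Gm8730 sets the left Xist-marked cells apart.

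Other genes divided by library whatever the mark. Pgk1, a glycolytic enzyme, was at 33.3 and 38.0 CPM in left Xist-marked and Y-marked cells and at 9.62 and 16.4 CPM in right ones. Rpl29, a ribosomal protein, was at 34.8 and 41.1 CPM on the left and 18.6 and 16.8 CPM on the right, and Gstp1, a glutathione transferase, at 23.5 and 27.2 CPM and 10.6 and 13.2 CPM. These 3 genes differed alike in other cells of the libraries: left over right was 1.97 (1.17 to 3.31), 2.05 (1.69 to 2.49) and 2.08 (1.51 to 2.87) in fibroblast-like cells. All 3 have near-identical copies elsewhere in the genome, so that their counts are uncertain. Of the other glycolytic genes measured, 22 in number, none was called, and the median of all 23 was 0.04.

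A further arrangement set the left Xist-marked cells apart from all others. Gm8730, annotated as a processed pseudogene and so uncertain in its reads, was at 149 CPM in left Xist-marked cells and at 554, 539 and 411 CPM in left Y-marked, right Xist-marked and right Y-marked cells. In fibroblast-like cells it was 2.22-fold (2.10 to 2.34) higher on the right, and in endothelial-like cells 2.20-fold (2.10 to 2.31). Mhrt, a noncoding RNA antisense to Myh7 at chr14:54968678-54974349, was at 24.0 CPM in left Xist-marked cells and at 103, 96.2 and 88.3 CPM in the others, but at 8.35 CPM in AVN/His members. Myh7 itself was at 3587 CPM on the left and 3892 CPM on the right. Mhrt and Myh7 overlap on opposite strands, and whether reads of either entered the count of the other was not tested.

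**Figure D3:**
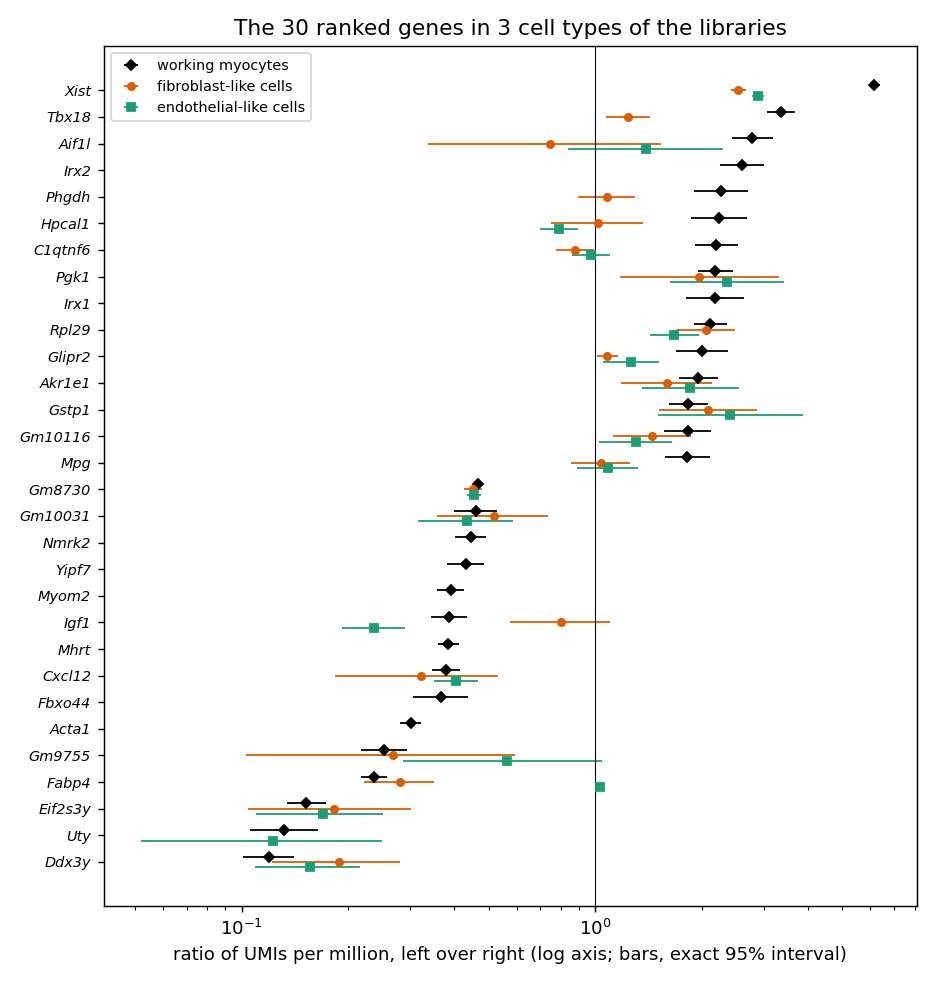
Ratio of left over right, on a log axis with exact 95% intervals, of the 15 highest-ranked genes of each side in working myocytes, fibroblast-like and endothelial-like cells of the same libraries. Points are left out where a cell type held too few UMIs; Gm8730, Rpl29 and Gstp1 have like ratios in all 3, whereas Tbx18 stands at 1.24 in fibroblast-like cells.

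Some right-higher genes came from few cells. Fabp4, a lipid carrier of endothelium, was at 85.3 CPM on the right and 20.2 CPM on the left, a ratio of 4.23 (3.89 to 4.59), yet 12.5% and 10.3% of cells held it. The right over left ratio was 5.81 (5.12 to 6.59) in Xist-marked and 7.48 (5.35 to 10.8) in Y-marked cells. The 53 right members with at least 2 endothelial markers, 1.93% of the cells, held 84.5% of its right UMIs, and the 29 such left members held 40.2% of its left UMIs. Of 6 measured endothelial markers 5 were called on the right, beside 3% of all genes tested, with a median log2 ratio of -1.15. The list of 8 summed to 21.4 CPM on the left and 49.5 CPM on the right. Kdr and Cdh5 were at 2.44 and 3.06 CPM on the left and 10.3 and 10.6 CPM on the right. Members that carried 2 markers of endothelial, fibroblast, macrophage or epicardial cells numbered 110 on the left and 167 on the right. Without them the log2 ratio of Fabp4, which is not among these markers, was -0.16. That of Kdr was 0.28, but Kdr is a marker that chose the cells left out, so its value is a description only. Called genes then numbered 209 on the left and 199 on the right. Fibroblast markers summed to 88.6 and 113 CPM, macrophage markers to 4.70 and 18.0 CPM, and pericyte and smooth muscle markers to 60.8 and 84.6 CPM, each higher on the right.

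The right-called members of several signaling lists were also low, and their counts stand beside 1.75% of all genes called on the left and 3% on the right. Of 27 axon guidance genes 1 was called on the left, the guidance cue Ntn1 at 63.8 and 38.7 CPM, and 8 on the right, with a median of -0.33. The 8 included the endothelial receptors Robo4, Nrp2 and Plxnd1. Of 16 Wnt and BMP genes 5 were called on the right, among them the Wnt inhibitor Wif1, at 22.7 CPM on the right and 12.2 CPM on the left, a ratio of 1.87 (1.65 to 2.11). Its ratio was 1.30 (0.945 to 1.76) in Xist-marked and 2.08 (1.46 to 3.04) in Y-marked cells. Of 23 ion channels and connexins 1 was called on the left, Gja5, and 5 on the right. Among the 5 was Abcc8, the sulfonylurea receptor of the KATP channel, at 12.7 CPM on the right and 6.84 CPM on the left. The right over left ratio of Abcc8 was 1.04 (0.638 to 1.62) in Xist-marked and 1.85 (1.18 to 3.04) in Y-marked cells. None of 19 sarcoplasmic reticulum calcium genes, without Ryr2, which the rule used, and none of 14 desmosome and adherens junction genes was called. Of 23 immediate early and heat shock genes 5 were called on the right, Klf2, Junb, Egr1, Nr4a1 and Zfp36, and Junb and Egr1 were higher on the left once cycling cells were left out. The median of the 23 was -0.10, yet the whole list of 26 summed to more on the left, 2971 CPM against 2663 CPM. Of 19 insulin-like growth factor and imprinted genes 1 was called on the left, Igfbp2, and 5 on the right, Igfbp3, Igf1, Dlk1, Igf2r and Igfbp4.

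Over all members the mitochondrial genome and the cell cycle lists moved little, each with all or nearly all of its genes to the same side. All 13 mitochondrial genome transcripts were lower on the left, with a median log2 ratio of -0.32 and none past 1.5-fold, and the median was -0.35 in Xist-marked and -0.46 in Y-marked cells. The nuclear genes of the respiratory chain, 40 in number, had a median of 0.03. All 25 G2 and M phase genes were higher on the left, with a median of 0.29 and none past 1.5-fold. The G2 and M phase median was 0.43 in Y-marked cells but 0.00 in Xist-marked cells, where 12 of the 25 genes were higher on the left. Of 18 S phase genes 17 were higher on the left, with medians of 0.32 and 0.34 in Xist-marked and Y-marked cells. The replication licensing genes Cdc6 and Cdt1 were called on the left, beside 1.75% of all genes tested.

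**Figure D4:**
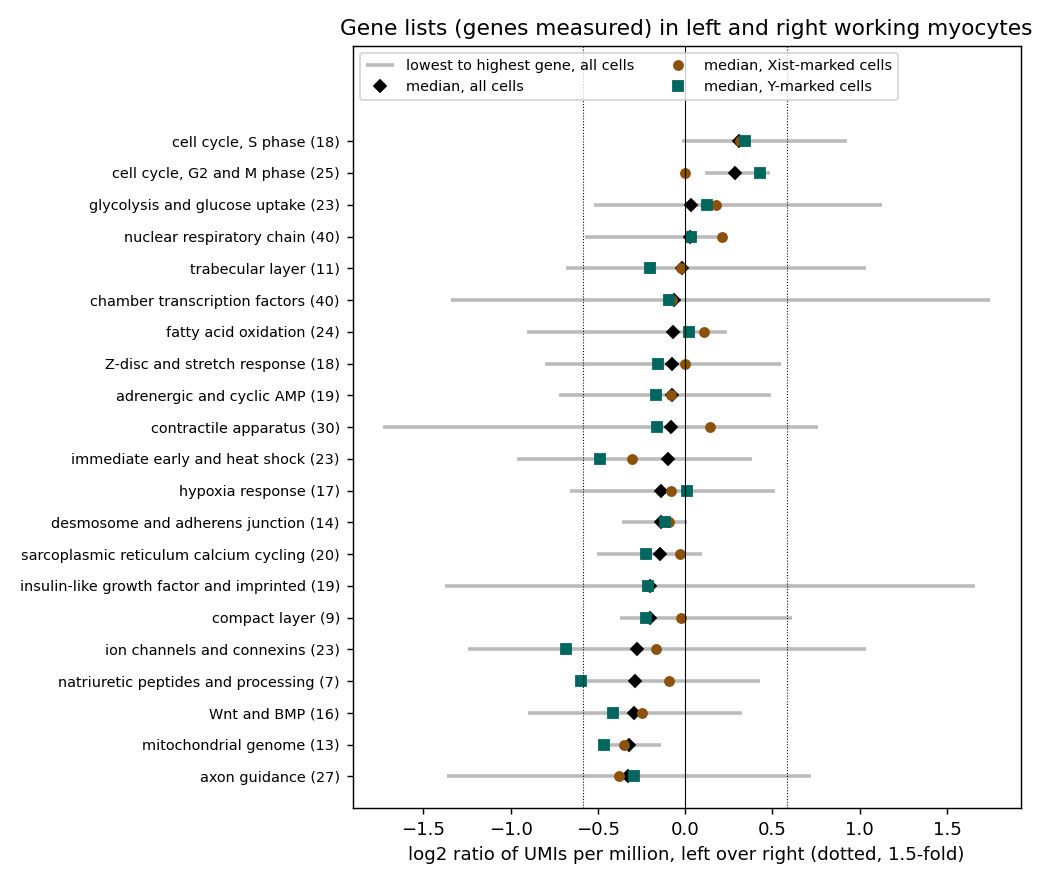
Log2 ratio of left over right for 21 gene lists, with the number of genes measured in brackets. Gray lines span the lowest to the highest gene, diamonds are medians of all members and circles and squares those of Xist-marked and Y-marked cells; all 25 G2 and M phase genes lie above 0 and all 13 mitochondrial genome genes below it.

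Cells with at least 2 UMIs of the G2 and M phase list made up 69.3% (67.9 to 70.7) of left and 61.1% (59.3 to 63.0) of right members. Thinned to 2000 UMIs a cell, the shares were 41.0% (39.5 to 42.5) and 32.7% (31.0 to 34.5). Thinned shares were 46.0% (40.5 to 51.6) in left Y-marked and 33.4% (31.1 to 35.8) in right Y-marked cells, and 38.5% (36.9 to 40.2) and 36.7% (31.7 to 41.9) in left and right Xist-marked cells, whose intervals overlapped. Free RNA of dividing cells adds to such shares, and its part was not tested.

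**Figure D5:**
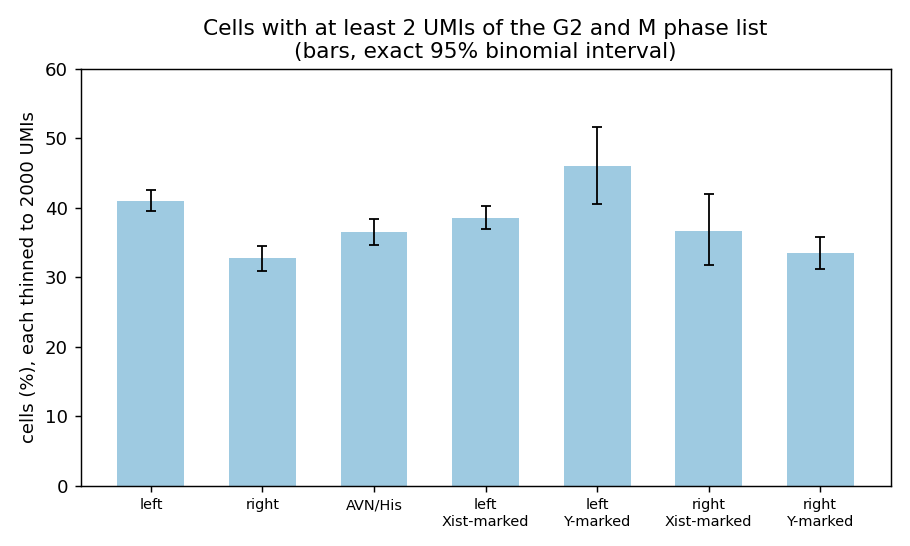
Share of working myocytes with at least 2 UMIs of the G2 and M phase list after thinning each cell to 2000 UMIs, by library and mark, with exact 95% binomial intervals. Left Y-marked cells stand at 46.0% and right Y-marked cells at 33.4%, with both Xist-marked groups between them.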

How the data were processed

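The authors made UMI counts with Cell Ranger at default parameters on mm10, per their methods and the labels; the version and annotation release are not given in the sources used here. Deposited values were raw counts per gene and barcode. UMIs of the members were summed per library and divided by their total (CPM). Genes with at least 100 UMIs over both libraries were compared, and a gene was called at a ratio of 1.5. With 1 library a ventricle, no test was made. Named genes were the 15 largest ratios of each side, limited to genes that 10% or more of the higher library's members held, the 3 highest and 3 lowest of each list, the genes of the rule, and Hand1, Hand2, Tbx5, Cited1, Irx4, Hey2, Nppa, Nppb and the sex transcripts; Mhrt, Myh7, Irx3, Irx5, Gm8730, Col1a2, Kdr and Cdh5 are named whether or not this rule takes them, after their values were seen. Not every gene so selected is reported here. Members and lists were chosen with earlier results of these data known. Fibroblast-, endothelial- and macrophage-like cells had a muscle score under 1 and at least 3 markers of their list, more than of the other lists. No doublet caller was run; cells with markers of another type were left out as an alternative. The calculations were tested on simulated counts. Used were edgeR 4.0.16 in R 4.3.3 for TMM factors, and matplotlib 3.10.9, pandas 2.3.3, scipy 1.17.1 and numpy 2.4.6 in Python 3.11.15.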

Additional observations from a re-analysis of the deposited data

Results flagged for a closer look

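Of the called genes named by the rule, 6 had left over right ratios whose counting intervals lay on opposite sides of 1 in Xist-marked and in Y-marked cells. The ratios were 1.07 and 0.845 for Myl7, 0.836 and 1.54 for Ntn1, 1.15 and 0.331 for Ankrd1, 0.277 and 1.35 for Gm8730, 1.52 and 0.344 for Nmrk2, and 0.249 and 1.16 for Mhrt. Myl7 UMIs were part of the rule that chose the cells, so its ratios are a description only. With 1 library a side the difference between the marks was not tested.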

How the results depend on the processing

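No paired analysis was possible because each ventricle had 1 library and the result came from no test. Genes called on the left and right numbered 187 and 320. The counts were 472 and 820 at a floor of 20 UMIs, 53 and 73 at 500 UMIs, and 42 and 120 at 2-fold. They were 197 and 152 after thinning to 2000 UMIs, 209 and 199 without cells of mixed type and 227 and 161 without cycling cells. Past the UMI floor were 7713, 10475 and 8147 genes in these settings, against 10665 in the main one. They were 393 and 388 in Xist-marked and 301 and 424 in Y-marked cells alone, alternatives chosen after seeing the data. Of the 187 and 320 genes, 44 and 55 were still called in Xist-marked cells and 29 and 102 in Y-marked cells. Leaving out cells with an endothelial marker, also chosen after seeing the data, gave 213 and 226. Fewer cells give wider counting error in these. The split of left against right calls moved from 36.9% left to 56.4% when thinned, 51.2% without cells of mixed type and 58.5% without cycling cells. The other alternatives (TMM, totals without mitochondrial and hemoglobin genes, median ratio set to 1, mean over cells, and other limits of the rule) gave 146 to 225 on the left and 252 to 385 on the right. Thinning moved the share of cells in cycle to 41.0% on the left and 32.7% on the right. Of the 187 left and 320 right calls, 44 and 61 had the opposite sign in Xist-marked cells and 25 and 26 in Y-marked cells. These counts were 1 and 31 without cells of mixed type, 6 and 23 without cycling cells and 3 and 11 after thinning. Without cells with an endothelial marker they were 0 and 14. For the named genes among the calls, log2 ratios changed sign as follows, and the cause was not tested. In Xist-marked cells they were -0.18 for Tbx18, -0.046 for Igfbp2, -0.15 for Hand1, -0.14 for Irx2, -0.14 for Hpcal1, -0.58 for Gja5, -0.26 for Ntn1, 0.036 for Slc27a1, 0.13 for Bmp10, 0.21 for Ankrd1, 0.089 for Xirp2, 0.61 for Nmrk2, 0.44 for Igf1, 0.19 for Fbxo44 and 0.065 for Acta1. In Y-marked cells they were -0.62 for Hand1, -1.02 for C1qtnf6, -0.24 for Myl7, 0.50 for Adm, 0.43 for Gm8730 and 0.22 for Mhrt. Without cells of mixed type they were 0.050 for Id1, 0.55 for Emcn, 0.27 for Mylk, 0.65 for Rgs5, 0.17 for Pecam1, 0.30 for Cdh5 and 0.28 for Kdr, and without cells with an endothelial marker 0.13 for Id1. Emcn, Pecam1, Cdh5 and Kdr are markers that chose the mixed cells, so the log2 ratios of these genes are descriptions only. Without cycling cells the log2 ratios were 0.29 for Egr1, 0.18 for Junb and 0.52 for Rgs5. They were 0.46 for Pde5a and 0.14 for Efnb2 after thinning, 0.061 for Tagln at a muscle score of 2.0 and 0.36 for Bmp10 without cells with another Purkinje marker. The sex transcripts define the marks and have no value within them.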
